A study of Drosophila melanogaster with 31 samples.

Results

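The regions described here were the H3K9me3 peaks on the left arm of chromosome 2 (2L) in ovaries of mod07570/L8 and mod07570/+ flies, in the dm3 build of the Drosophila melanogaster genome. All broad peaks that the deposited MACS2 lists place on chr2L were taken, and the separate heterochromatin scaffold 2LHet was left out. This gave 200 of 3075 peaks in mod07570/L8 (6.50%) and 317 of 4643 peaks in mod07570/+ (6.83%), together 517 of 7718. MACS2 finds stretches where immunoprecipitated fragments pile up above the input, and its broad mode joins neighbouring stretches into one peak.

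The gene mod encodes Modulo, a homolog of mammalian Nucleolin. In the mutant the P-element insertion mod07570, which lowers mod function, was combined with the null deletion modL8, since flies with 2 copies of either allele die. Control ovaries carried 1 copy of mod07570, so the insertion was common to both genotypes. The modL8 chromosome was in the mutant only, and its part in the values below was not tested. Ovary RNA of modL8/+ flies was sequenced in the study and not used here. The label of the control ChIP library gives only the mod07570 allele and was read as the mod07570/+ control of the study. The study asked whether H3K9me3 at transposons depends on Modulo. From pooled ovaries of each genotype, 1 library of chromatin precipitated with an antibody against H3K9me3 and 1 of input were sequenced, so no peak value has a replicate error and no test between the genotypes was possible for the peaks. RNA of the ovaries was measured in 3 libraries per genotype.

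H3K9me3, trimethylation of lysine 9 of histone H3, marks constitutive heterochromatin and is bound by HP1. In flies it is densest around the centromeres and on transposon-rich sequence, and in the ovary part of it is laid down by the Piwi-piRNA pathway, in which small RNAs guide Piwi to nascent transposon transcripts. Arm 2L runs from its telomere, where coordinates begin, through gene-rich euchromatin into the pericentric heterochromatin at its proximal end, and piRNA clusters are known from its proximal part.

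The depth of the libraries was unequal. The mod07570/L8 ChIP library held 3071728 reads, of which 1138939 remained after reads at a shared position were removed, against 20741540 and 6187044 reads in the mod07570/+ library. The remaining mod07570/L8 reads were 0.184 times those of mod07570/+. The input libraries kept 7407221 reads for mod07570/L8 and 16874502 reads for mod07570/+. Fewer reads reach a fixed cut-off at fewer places. The part that depth played in the differences below cannot be told apart from that of the genotype, also where scaled values are given.

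On 2L the mod07570/L8 peaks covered 230387 bp and the mod07570/+ peaks 797248 bp. The number of peaks in mod07570/L8 was 0.631 times that in mod07570/+ and the covered length 0.289 times, against ratios of 0.662 and 0.313 over the whole genome. On the arms 2R, 3L, 3R and X together the same ratios were 0.525 for the number and 0.315 for the covered length. 2L lay close to the genome in both. The order of the numbers turned when both lists were held to at least 3-fold, with 160 mod07570/L8 peaks and 86 mod07570/+ peaks left. Median peak length was 686 bp in mod07570/L8 and 661 bp in mod07570/+, while the longest peak measured 8883 bp in mod07570/L8 and 56096 bp in mod07570/+. Fold over input is the pileup of ChIP fragments over the background, after MACS2 adds 1 to each. Its median was 4.21 in mod07570/L8 (range 1.80 to 12.0) and 2.43 in mod07570/+ (range 1.27 to 11.2). The background is the local input or, where higher, the genome-wide value. At or near the latter were 27 of 200 mod07570/L8 peaks and 97 of 317 mod07570/+ peaks. The lowest pileup of a 2L peak was 7.19 fragments in mod07570/L8 and 20 in mod07570/+, with genome-wide backgrounds of 2.08 and 11.5. Weak peaks at that background were thus harder to call in mod07570/L8. The part of this in the medians and the 3-fold counts was not tested.

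The peaks crowded at the proximal end of the arm. For description the arm was divided into a distal end (below 1 Mb), a middle zone (1 to 20 Mb), a subproximal zone (20 to 22 Mb) and a proximal zone (from 22 Mb on). The proximal zone held 143 mod07570/L8 peaks (71.5% of those on 2L) and 110 mod07570/+ peaks (34.7%). It held 81.8% of the mod07570/L8 peak bases and 78.8% of the mod07570/+ peak bases. The genotypes thus placed like shares of their covered length there, although mod07570/L8 had 1.30 times as many peaks. Elsewhere mod07570/L8 had the fewer peaks: 3 against 15 in mod07570/+ at the distal end, 34 against 149 in the middle zone and 20 against 43 in the subproximal zone. The plot of fold along the arm shows the dense block at its proximal end, where every peak over 6-fold lies.

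**Figure D1:**
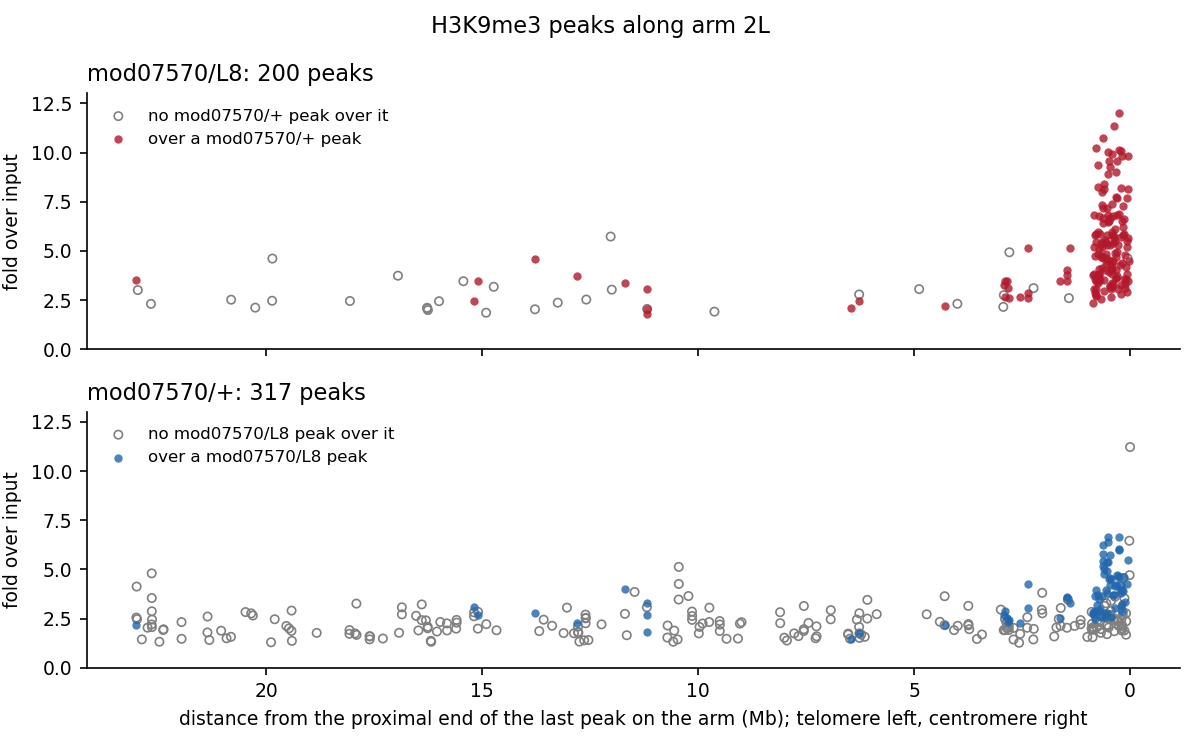
Fold over input of every 2L peak (y axis) against its distance from the proximal end of the last peak on the arm in Mb (x axis, telomere on the left), with the 200 mod07570/L8 peaks above and the 317 mod07570/+ peaks below. Filled points overlap a peak of the other genotype and open circles do not, and the open circles spread over the whole arm while the block at the right holds most filled points.

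In the middle zone, peaks were sparse in both genotypes. Over its 19 bins of 1 Mb, mod07570/L8 had 0 to 6 peaks (median 2) and mod07570/+ had 1 to 16 (median 7). No mod07570/L8 peak lay in 6 of these bins. The median gap between neighbouring peaks below 22 Mb was 174.6 kb in mod07570/L8 and 40.1 kb in mod07570/+, whereas in the proximal zone it was 2918.5 bp in mod07570/L8 and 1504 bp in mod07570/+.

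Peak length differed most between the genotypes in the proximal zone. There the median was 771 bp in mod07570/L8 and 2095 bp in mod07570/+, and outside it the medians were 509 bp in mod07570/L8 and 498 bp in mod07570/+. Fold was higher in the proximal zone in both genotypes. Its median was 5.20 there and 2.75 in the other zones in mod07570/L8, and 3.09 and 2.19 at the same places in mod07570/+. The covered length of the proximal zone was 188504 bp in mod07570/L8 and 628628 bp in mod07570/+, a ratio of 0.300, close to that of the arm as a whole. More peaks of shorter length made up the smaller total in mod07570/L8.

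**Figure D2:**
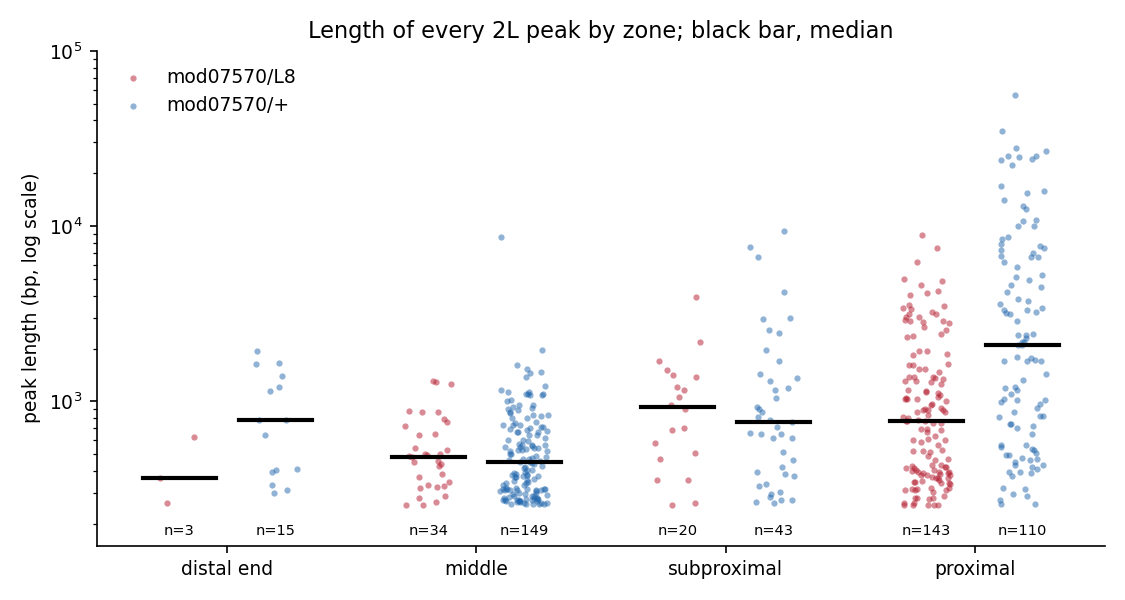
Length of every 2L peak in bp on a log scale, by zone, with mod07570/L8 left of mod07570/+ in each zone. Points are peaks, black bars are medians and n is the number of peaks; all peaks of 10 kb or more are mod07570/+ peaks of the proximal zone.

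The long domains of the control were only partly covered in mod07570/L8, most of them by several shorter peaks. In mod07570/+, 18 peaks were at least 10 kb long, all in the proximal zone, and together they covered 399945 bp, which was 50.2% of all mod07570/+ peak bases on 2L. Each of the 18 had 1 to 16 mod07570/L8 peaks over it (median 5), and these covered 6.42% to 68.0% of its length (median 28.5%). No mod07570/L8 peak on 2L reached 10 kb. The longest mod07570/+ peak, chr2L:22577176-22633271, had a fold of 3.69. 16 mod07570/L8 peaks lay over it, of which chr2L:22632893-22633287 had the second highest fold of any mod07570/L8 peak on the arm (11.4), and they covered 24.5% of its length. The next longest, chr2L:22956507-22991263 (34757 bp, fold 5.48), had 5 mod07570/L8 peaks over 25.5% of its length. The domain best covered was chr2L:22387612-22400613 (13002 bp, fold 5.78), where the longest mod07570/L8 peak of the arm, chr2L:22387574-22396456 (8883 bp, fold 6.66), covered 68.0%. The domain least covered was chr2L:22419307-22431871 (12565 bp, fold 2.76), with 1 mod07570/L8 peak over 6.42%.

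When peaks at most 10 kb apart were joined, the mod07570/L8 peaks formed 58 clusters and the mod07570/+ peaks 132. The 4 mod07570/+ clusters of largest span lay side by side between 22154980 and 23011544 and held 78.0% of the mod07570/+ peak bases of the arm. All 143 mod07570/L8 peaks of the proximal zone overlapped the span of these 4 clusters. The widest spanned 259115 bp (chr2L:22508070-22767184), of which 31 mod07570/+ peaks covered 79.5%, and 50 mod07570/L8 peaks lay inside it. The widest mod07570/L8 cluster spanned 130286 bp (chr2L:22508124-22638409) and its 30 peaks covered 29.9% of it. The plot of the 4 clusters shows the short, high mod07570/L8 peaks standing over the long, lower mod07570/+ peaks.

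**Figure D3:**
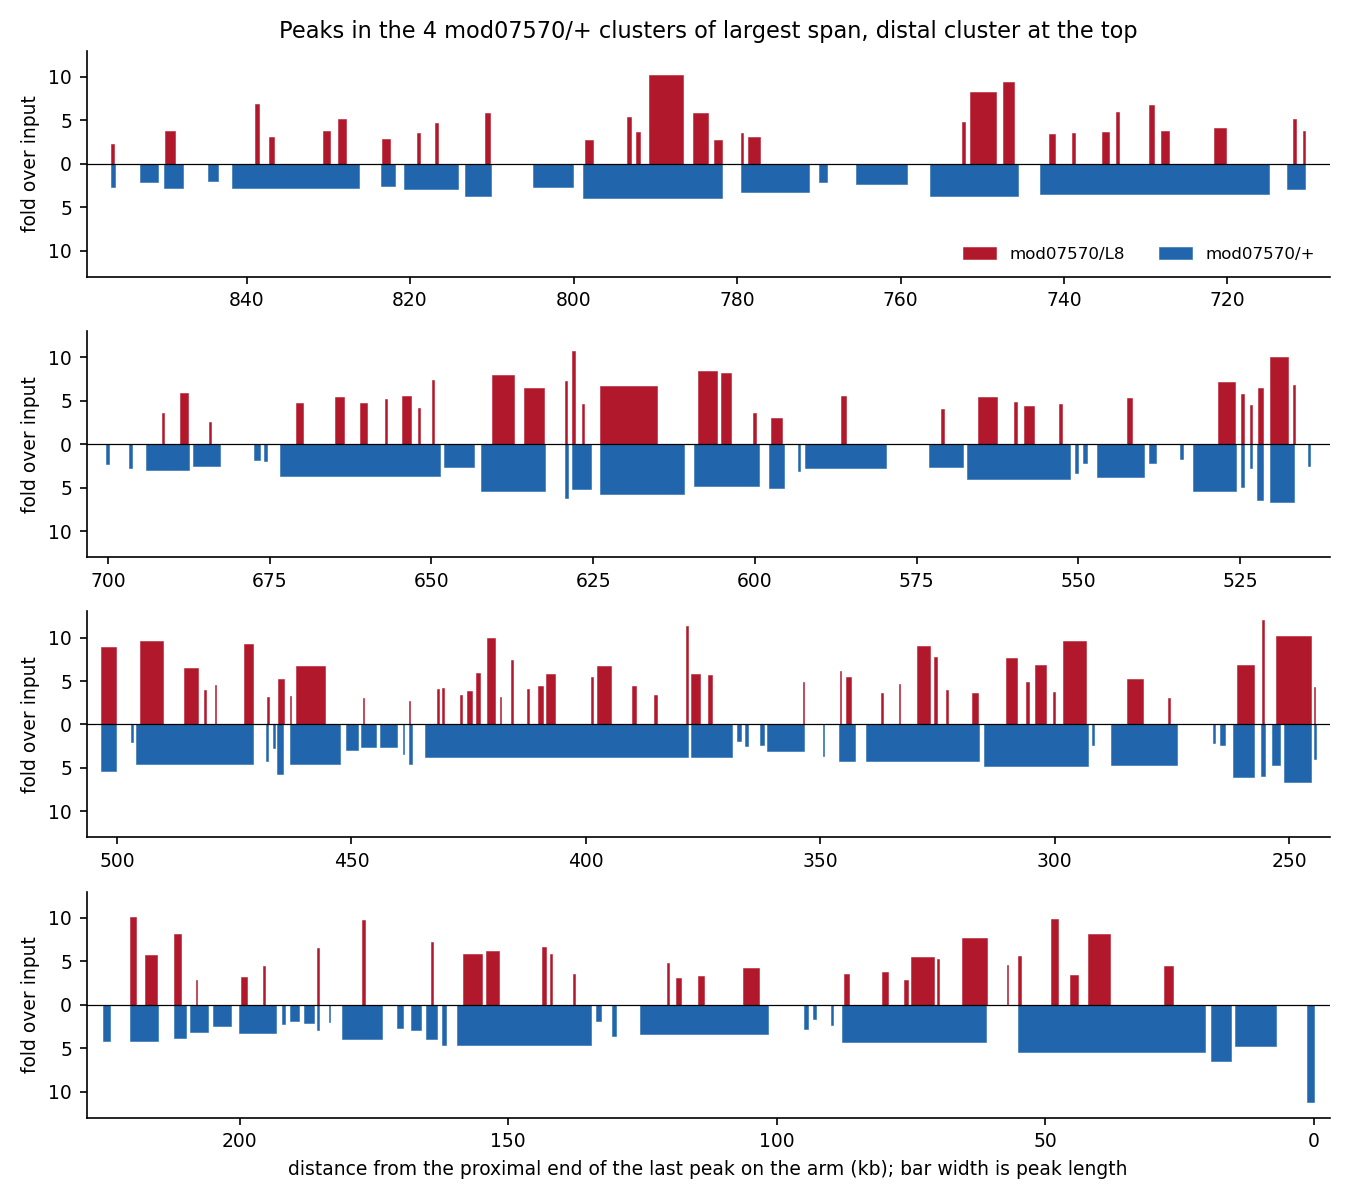
Peaks of the 4 mod07570/+ clusters of largest span, one panel each, with mod07570/L8 drawn upward and mod07570/+ downward. Bar height is fold over input, bar width is peak length and the x axis is the distance from the proximal end of the last peak on the arm in kb; at the far right of the lowest panel the last 3 mod07570/+ peaks face no mod07570/L8 peak.

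A mod07570/+ peak was called kept when a mod07570/L8 peak shared 1 bp or more with it. On 2L, 83 of 317 mod07570/+ peaks were kept (26.2%, 95% Wilson interval 21.6 to 31.3), against 37.5% of mod07570/+ peaks over the whole genome and 24.7% (452 of 1827) on the arms 2R, 3L, 3R and X. The share depended on the criterion. It was 58.1% with both lists held to at least 3-fold, 43.7% and 40.0% with equal numbers of peaks taken by fold and by −log10 q, and 12.6% when 50% of the peak had to be covered. The intervals, here and below, cover counting error only, and peaks of 1 library are not replicates. The share differed widely along the arm. In the proximal zone 59 of 110 mod07570/+ peaks were kept (53.6%, interval 44.4 to 62.7), and in the other zones 24 of 207 (11.6%, interval 7.92 to 16.7). The counts outside the proximal zone were 1 of 15 at the distal end, 11 of 149 in the middle zone and 12 of 43 in the subproximal zone. By bases, mod07570/L8 peaks covered 25.9% of the mod07570/+ peak length on 2L, 29.7% in the proximal zone and 11.9% outside it. The mod07570/L8 peaks were also far denser in the proximal zone, with 143 peaks at a median gap of 2918.5 bp. Elsewhere on 2L there were 57, at a median gap of 174.6 kb. A mod07570/+ peak was thus more easily touched in the proximal zone. The part of this density in the contrast between the zones was not tested.

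Kept peaks were the longer and stronger ones in mod07570/+. Their median length was 3328 bp and their median fold 3.65, whereas the 234 peaks not kept had a median length of 526 bp and a median fold of 2.16. For the peaks not kept, the median distance to the nearest mod07570/L8 peak was 3959 bp in the proximal zone and 118931 bp outside it.

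The proximal zone and the remainder of the arm differed also within the middle and highest of 3 classes of fold. All mod07570/+ peaks of the genome were ranked by fold into 3 classes of equal size, with limits at 2.29 and 3.51, and the same limits were applied to 2L. In the highest class 40 of 47 proximal peaks were kept (85.1%, interval 72.3 to 92.6) and 4 of 13 others (30.8%, interval 12.7 to 57.6). In the middle class the share was 46.3% in the proximal zone (interval 32.1 to 61.3) and 17.3% elsewhere on 2L (interval 10.4 to 27.4). In the lowest class 0 of 22 proximal peaks were kept, which by the same interval allows a share of up to 14.9%, and 7 of 119 others (5.88%). On the arms 2R, 3L, 3R and X 9.32% of peaks were kept in the lowest class, 29.6% in the middle class and 180 of 240 in the highest. Fold was not matched within a class. In the highest class it ran from 3.54 to 11.2 in the proximal zone and from 3.55 to 5.13 elsewhere on 2L. The classes were also not matched for length, and proximal peaks were kept more often when longer. Of proximal peaks of 259 to 917 bp, 10 of 37 were kept (27.0%). At 971 to 4513 bp the count was 17 of 37 (45.9%), and from 4634 bp on 32 of 36 (88.9%). The part of length, and of fold within a class, in the contrast between the zones was not tested.

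**Figure D4:**
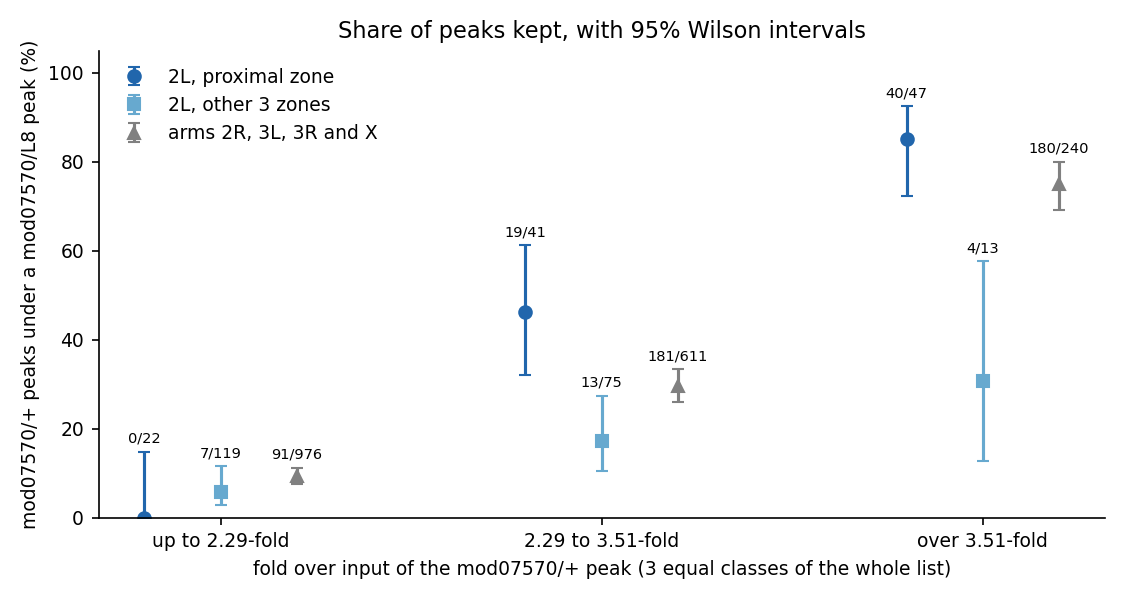
Share of mod07570/+ peaks with a mod07570/L8 peak over them (y axis, percent) in 3 classes of fold over input (x axis), for the proximal zone of 2L, the other 3 zones of 2L and the arms 2R, 3L, 3R and X. Bars are 95% Wilson intervals and the fractions give peaks kept of all peaks; in the highest class 40 of 47 proximal peaks and 4 of 13 other 2L peaks were kept.

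Depth was set beside these shares by scaling. When each mod07570/+ pileup was multiplied by the read ratio of 0.184, 94 of the 234 peaks not kept fell below 7.19 fragments, the lowest pileup of any mod07570/L8 peak on 2L, and so did 18 of the 83 kept. Of the proximal peaks not kept, 38 of 51 fell below it, and of the other peaks not kept 56 of 183. Among mod07570/+ peaks at or above that pileup, 47 of 60 were kept in the proximal zone (78.3%, interval 66.4 to 86.9) and 18 of 145 elsewhere on 2L (12.4%, interval 8.00 to 18.8). This floor does not put the zones on a par. Outside the proximal zone the median scaled pileup was 12.8 fragments for peaks not kept and 11.4 for kept ones, over a higher input background, so a peak that reached the floor there could still miss the call. The part of depth in the contrast between the zones was not tested.

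The input background differed between the zones as well. The local background of a mod07570/+ peak, worked back from its pileup and fold, exceeded 2 times the genome-wide background in 58.0% of the peaks outside the proximal zone and in 8.18% of the proximal ones. In mod07570/L8 the shares were 64.9% outside and 23.1% in the proximal zone. Among mod07570/+ peaks with a background at most 2 times that of the genome, 53 of 101 proximal peaks were kept (52.5%) and 13 of 87 others (14.9%). These 2 sets were still unlike in strength, with a median fold of 3.15 in the proximal zone and 2.34 elsewhere. The part of the background in the contrast between the zones was not tested.

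Seen from the mutant, nearly every proximal peak lay on control signal. Of the mod07570/L8 peaks, 169 of 200 overlapped a mod07570/+ peak (84.5%), against 91.3% over the whole genome, and 135 lay wholly inside one. In the proximal zone 142 of 143 overlapped and outside it 27 of 57. The mod07570/+ peaks covered 73.9% to 79.5% of each of the 4 widest clusters, whose spans all 143 overlapped. Outside the proximal zone they covered 168620 bp in all. An overlap of 1 bp was thus close to given in the proximal zone. The part of this coverage in the contrast was not tested. The 31 mod07570/L8 peaks with no mod07570/+ peak over them lay at the distal end (2), in the middle zone (23), in the subproximal zone (5) and in the proximal zone (1). Their median fold was 2.52, below the 4.63 of the mod07570/L8 peaks that overlapped one.

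The highest of these by fold was chr2L:10985730-10986155 (426 bp, fold 5.73), which lay 209917 bp from the nearest mod07570/+ peak. It rested on a pileup of 18.5 fragments. The others among the 5 highest were chr2L:20216915-20217268 (fold 4.93), chr2L:22954362-22954642 (fold 4.62), chr2L:3155090-3156345 (fold 4.61) and chr2L:6061916-6062236 (fold 3.74). Their pileups ranged from 13.2 to 27.4 fragments. The proximal one of them lay 1865 bp from a mod07570/+ peak.

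Both ends of the arm held mod07570/+ peaks that were not kept. At the telomere the first mod07570/+ peaks were chr2L:5107-6764 (fold 2.55), chr2L:7553-9184 (fold 2.19), chr2L:12640-13034 (fold 4.13) and chr2L:22079-22378 (fold 2.47). Only the one at 7553 was kept, under the most distal mod07570/L8 peak, chr2L:7633-7999 (367 bp, fold 3.50). A group of 6 mod07570/+ peaks followed between 358106 and 368440, with folds of 2.07 to 4.80, and no mod07570/L8 peak lay in this stretch. Its highest member was chr2L:360661-361811 (1151 bp, fold 4.80). The nearest mod07570/L8 peak, chr2L:344054-344677, ended 13429 bp before the first of the group.

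At the proximal end of chr2L, the last mod07570/L8 peak was chr2L:22983664-22985279 (fold 4.51). The mod07570/+ list went on for 3 more peaks, none of them kept. These were chr2L:22992378-22996232 (fold 6.46), chr2L:22996857-23004583 (fold 4.71) and chr2L:23010228-23011544. The last had the highest fold of any mod07570/+ peak on the arm, 11.2, on a pileup of 190.9 fragments, and it began 24949 bp beyond the end of the last mod07570/L8 peak. Scaled to the mod07570/L8 depth, the pileups of the 3 peaks came to 14.6, 11.1 and 35.1 fragments, all above the lowest mod07570/L8 pileup on the arm. A peak above that floor could still miss the call, and the part of depth here was not tested. The 3 peaks were among the 5 mod07570/+ peaks of highest fold that were not kept. The other 2 were the peak at 360661 and chr2L:12562628-12563076 (449 bp, fold 5.13), which lay 731871 bp from any mod07570/L8 peak. The end of the chr2L list does not describe heterochromatin placed on other sequences. On the scaffold 2LHet, left out here, 20 of 40 mod07570/+ peaks were kept.

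Kept peaks of the middle zone were few and mostly short. The 11 lay between 7825623 and 18721610, and 4 of them fell in the bin from 11 to 12 Mb. The exception in length was chr2L:7917622-7926320 (8699 bp, fold 2.70 in mod07570/+), over which 1 mod07570/L8 peak of 870 bp and fold 3.47 covered 10.0%. The mod07570/+ peak of highest fold among the 11 was chr2L:11315797-11316172 (fold 3.99), with a mod07570/L8 partner of fold 3.35. The peak at 9226657 showed the highest mod07570/L8 fold, 4.56, against 2.81 in mod07570/+.

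The subproximal zone held short groups of peaks, several of them kept. At chr2L:20634791-20638999 (4209 bp) the stronger of 2 mod07570/L8 peaks had a fold of 5.17, against 4.24 for the mod07570/+ peak. At chr2L:21626833-21628182 the folds were 5.17 in mod07570/L8 and 3.30 in mod07570/+. A cluster of 4 mod07570/+ peaks from 21543532 to 21573162 covered 18093 bp and contained 3 mod07570/L8 peaks that covered 6834 bp, the widest coverage by mod07570/L8 peaks of any cluster of at least 4 mod07570/+ peaks outside the proximal zone. The longest peak of the zone, chr2L:20103255-20112676 (9422 bp, fold 2.88), had 2 mod07570/L8 peaks over 15.2% of its length.

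At kept sites the fold was mostly higher in mod07570/L8. Each kept mod07570/+ peak was paired with the mod07570/L8 peak of largest overlap. In the 83 pairs the median fold was 5.17 in mod07570/L8 and 3.65 in mod07570/+, and the median of the ratios was 1.36 (interquartile range 1.14 to 1.63, range 0.588 to 2.59). The fold was higher in mod07570/L8 in 69 pairs and lower in 14, and over the whole genome it was higher in 78.4% of 1739 pairs with a median ratio of 1.35. 2L lay near this background. The median ratio was 1.48 in the 59 proximal pairs and 1.19 in the other 24. Only sites that passed the call in the shallower library entered the pairs, and the mod07570/L8 partners were shorter, with a median of 947 bp against 3328 bp in mod07570/+, so that mod07570/L8 values were averaged over smaller stretches. The part of either in the ratio was not tested.

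**Figure D5:**
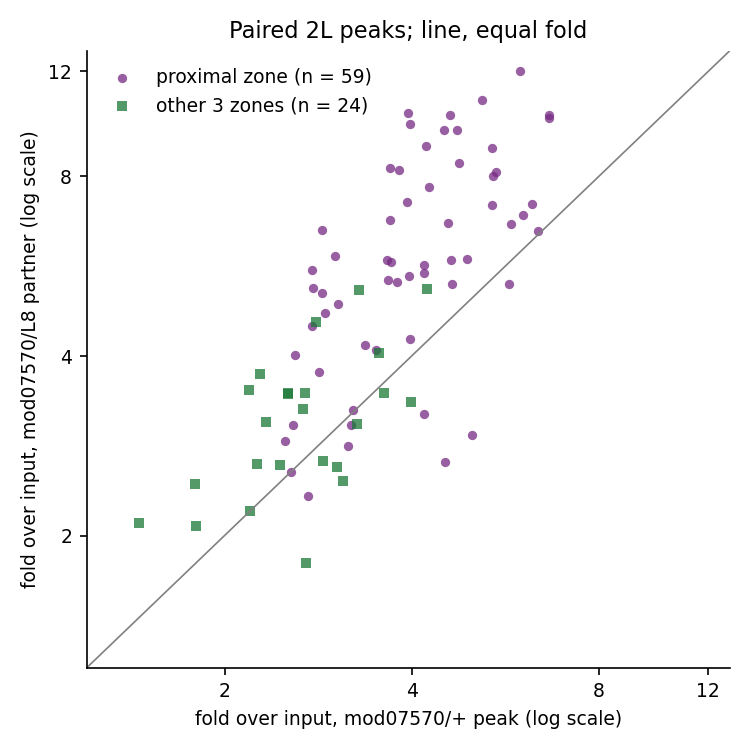
Fold over input of the mod07570/L8 partner (y axis) against that of the mod07570/+ peak (x axis), both on log scales, for the 83 kept mod07570/+ peaks. Circles are the 59 pairs of the proximal zone, squares the 24 pairs of the other zones and the line marks equal fold; 69 points lie above it.

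The 5 mod07570/L8 peaks of highest fold were all proximal. They were chr2L:22755707-22756225 (519 bp, fold 12.0), chr2L:22632893-22633287 (395 bp, fold 11.4), chr2L:22383283-22383700 (418 bp, fold 10.7), chr2L:22220724-22224892 (4169 bp, fold 10.2) and chr2L:22758666-22766159 (7494 bp, fold 10.1). The mod07570/+ peaks over them had folds of 5.98, 3.69, 5.19, 3.94 and 6.65 in the same order. Of the 5 mod07570/+ peaks of highest fold, 3 were kept. These were chr2L:22491212-22494931 (fold 6.66), chr2L:22760326-22766136 (fold 6.65) and chr2L:22489198-22490114 (fold 6.38), and their mod07570/L8 partners had folds of 10.0, 10.1 and 6.47. The other 2 were the terminal peaks at 23010228 and 22992378.

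RNA gave the only replicated values. Levels are cpm, estimated counts scaled to a common library total, in 3 libraries per genotype, and differences were tested by the quasi-likelihood test of edgeR, with p-values adjusted by Benjamini-Hochberg over 8295 genes and transposons. At an adjusted p under 0.05, 38.5% of these were higher in mod07570/L8 and 39.1% lower, so a call by itself was common. The gene mod had 12.3, 10.3 and 11.4 cpm in mod07570/L8 and 335.0, 341.5 and 324.4 cpm in mod07570/+, a check of the genotypes. The germline markers osk, nanos, vas, bam and grk were present in every library, and the photoreceptor opsins ninaE, Rh3 and Rh4 were at or near 0. The germline markers did not move together. bam, a gene of early germline differentiation, averaged 66.3 ± 2.8 cpm in mod07570/L8 and 134.3 ± 3.0 cpm in mod07570/+ (SD, n = 3 each; log2 fold change -0.93, edgeR adjusted p = 2.6e-17). vas, a germline RNA helicase gene that itself lies on 2L, averaged 209.2 ± 5.2 cpm in mod07570/L8 and 142.6 ± 6.6 cpm in mod07570/+ (SD, n = 3 each; log2 fold change 0.64, edgeR adjusted p = 9.2e-16). grk and nanos were higher by 0.40 and 0.20 on the log2 scale, and osk was not called (edgeR adjusted p = 0.37). In whole ovaries, fewer cells of a type and less RNA per cell cannot be told apart, and the part of the cell makeup in the values below was not tested. No dm3 gene annotation was used, so none of these genes is placed under a peak.

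The transposon gtwin, counted over all its copies and not those of 2L alone, had 8.05, 7.36 and 8.64 cpm in mod07570/L8 and 1.00, 0.670 and 1.33 cpm in mod07570/+. The groups did not overlap, and the log2 fold change was 3.08 ± 0.22 (standard error; edgeR adjusted p = 1.4e-12). Of 6 genes known from the ends of the arm, 5 could be tested, of which 2 were higher and 2 lower in mod07570/L8. tsh, a zinc finger gene of trunk identity next to the pericentric heterochromatin, had 23.4, 21.7 and 21.3 cpm in mod07570/L8 and 3.93, 5.18 and 5.44 cpm in mod07570/+ (log2 fold change 2.26 ± 0.11, edgeR adjusted p = 9.3e-16). Its neighbour and paralog tio was under the count filter, with 0.533 to 0.964 cpm in mod07570/L8 and 0.539 to 0.792 cpm in mod07570/+.

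Among genes known to lie in the 2L heterochromatin, cta, a G protein alpha subunit gene, was lower in mod07570/L8 (log2 fold change -0.56 ± 0.03, edgeR adjusted p = 1.1e-14). Its levels were 131.7, 124.4 and 131.7 cpm in mod07570/L8 and 197.6, 206.4 and 203.9 cpm in mod07570/+. RpL5, a ribosomal protein gene, was higher (log2 fold change 0.23 ± 0.02, edgeR adjusted p = 6.8e-11), with 2322 to 2365 cpm in mod07570/L8 and 2106 to 2142 cpm in mod07570/+. lt, a vesicle trafficking gene known to need heterochromatin for its expression, had 81.6, 85.5 and 84.4 cpm in mod07570/L8 and 90.0, 91.9 and 86.5 cpm in mod07570/+. These groups did not overlap, yet after normalization no difference was called (log2 fold change -0.0019 ± 0.040, edgeR adjusted p = 0.97). With total-count scaling lt was called lower (edgeR adjusted p = 0.033). At the distal end l(2)gl, a cell polarity gene, was lower (log2 fold change -0.23 ± 0.02, edgeR adjusted p = 2.7e-09), with 351.2 to 366.6 cpm in mod07570/L8 and 440.3 to 454.1 cpm in mod07570/+. The calls for cta and l(2)gl were not made, and their signs turned, when reads unique to 1 transcript were counted, and RpL5 was then not called. With 2 of 5 genes called in each direction, the shares of calls did not stand apart from those over all features. The sizes of the changes were not compared with those of all features. Of the 5 genes, tsh changed most and was the 1 still called with unique counts (log2 fold change 2.24).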

How the data were processed

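H3K9me3 ChIP DNA, input DNA and RNA of ovaries were sequenced; the ChIP reads were aligned by the authors to dm3 with Bowtie, and the headers show that only reads mapping once entered the call, so repeated sequence is represented by its unique parts. The authors called broad peaks with MACS2 2.2.7.1 (q cut-offs 0.05 and 0.1; fragment length 255 bp in mod07570/L8 and 259 bp in mod07570/+). The deposited columns are the pileup (a signal, in ChIP fragments, not scaled for depth), the fold over input (a ratio) and the −log10 p and q values. The names of the p and q columns were lost in the lists. These columns were identified by their place in MACS2 output and their values. The authors aligned RNA reads to RefSeq transcripts and transposons with Bowtie 2 and quantified them with eXpress, and the deposited tables hold estimated counts, effective counts and counts of unique reads per transcript.

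Peaks were compared in Python 3.11.15 by an overlap of at least 1 bp, checked with bedtools 2.31.1 and on simulated peaks. Peaks were assigned to zones by their start. Wilson intervals have 95% confidence. Estimated counts were summed per gene (34035 of 34563 sequences matched a symbol by RefSeq accession in a Release 6 table, from which no coordinate was used), rounded, filtered at 1 cpm in at least 3 libraries, normalized by TMM and tested with edgeR 4.0.16 (R 4.3.3). The libraries held 12988959 to 18353131 estimated counts. The edgeR step was tested on simulated data. The study describes the RNA replicates as biological. Named peaks were the 5 longest, the 5 of highest fold, the outermost, the 5 strongest without a partner, and the widest clusters, and named genes are known from the ends of 2L; others named were chosen after their values were seen. The zones, members and lists were chosen with earlier results of these data known. No gene is assigned to a peak because no dm3 annotation was used here, and ChIP reads counted on transposon consensus sequences were not used here.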

Additional observations from a re-analysis of the deposited data

How the results depend on the processing

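The share of mod07570/+ peaks kept on 2L (26.2%) came to 58.1% when both lists were held to at least 3-fold, 35.1% at 1000 bp or longer, 12.6% when 50% of the peak had to be covered, 40.0% and 43.7% with equal numbers of peaks taken by −log10 q and by fold, and 31.7% with the scaled pileup floor, which was chosen after seeing the data. It was 25.9% at −log10 q of at least 3, and 28.7% within 1 kb. At 1000 bp or longer, 69 mod07570/L8 peaks and 111 mod07570/+ peaks remained on the arm, and at least 3-fold left 160 mod07570/L8 peaks and 86 mod07570/+ peaks, which turns the order of the numbers. Joining at 5 kb gave 95 mod07570/L8 clusters. With pileups scaled to the reads of each library the median paired ratio was 2.07.

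For RNA, unique counts gave log2 fold changes of 0.15 for l(2)gl and 0.17 for cta, and left 1 of the 5 genes called. RpL5 then had an adjusted p of 0.059 by edgeR. Total-count scaling, which moved the median of all genes to -0.09, called lt. Leaving out 1 library at a time gave -0.035 to 0.035 for lt and kept 4 genes called each time. The replicate numbers did not pair the libraries (correlations of same-numbered deviations -0.06, 0.01 and -0.06). With the replicate block 4 genes were called, with log2 fold changes of 3.09 for gtwin and 2.27 for tsh, and 6316 of 8295 features against 6434 without it. Of 72 results for single genes under the alternatives, 65 kept their direction and side of the threshold. The planned look at genes under peaks was not run, for want of a dm3 annotation here. The depth of the mod07570/L8 ChIP library and its single replicate limit every statement on peaks.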
